A study of Homo sapiens with 12 samples.

Results

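The interleukin-1 (IL-1) family genes described here are 9 members: the ligands IL1A, IL1B, IL18 and IL33, the receptor chains IL1R1 and IL1RAP, and the signalling genes MYD88, IRAK1 and IRAK2. All 9 were found among the 28100 genes of the table, each represented by its RefSeq transcript with the most counts over 12 libraries. RNA sequencing measured them in MV3 cells, an established line from a human melanoma. A control group (Ctrl) received PBS, and the other 3 groups received 1e10 particles per well of extracellular vesicles from THP-1 cells, a human monocytic leukaemia line, polarized to M0, M1 or M2 macrophages. Every group was kept for 24 h in the same medium and holds 3 libraries. Which agents polarized the macrophages, and whether the replicates were separate cultures or vesicle preparations, is not in the labels, so the p-values describe only the spread among these libraries, which may be technical. All data come from a single recipient line and a single donor line.

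IL-1 alpha and IL-1 beta are secreted alarm cytokines that bind the same receptor, IL1R1. The bound receptor recruits the accessory chain IL1RAP, and both intracellular tails then gather the adaptor MYD88 and the IRAK kinases, which lead to NF-kB and MAP kinase activation. IL-18 and IL-33 belong to the same cytokine family but bind receptor chains of their own, and melanoma cells are known to be able to make IL-1 themselves. In an RNA measurement of whole wells, fewer cells making a transcript and less of it per cell cannot be told apart.

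Each library held between 9694850 and 14379747 gene counts, and 13116 genes had enough counts to be tested. The cells carried AXL at a mean of 1311 CPM (counts scaled to a common library size with TMM factors) and SOX9 at 111.4 CPM in Ctrl. Melanocyte lineage markers were low or absent: TYR and S100B had no count, SOX10 had 3 counts over all libraries, MITF stood at 0.807 CPM in Ctrl and MLANA at 0.768 CPM. The melanoma surface proteoglycan CSPG4 was present at 128.6 ± 5.3 CPM in Ctrl (SD, n = 3). Of 5 tested genes of the 14 in this marker list, SOX9 (log2 fold change -0.42 ± 0.045, SE, adjusted p = 2.11e-09 by edgeR) and AXL (-0.34 ± 0.028, adjusted p = 1.32e-12) fell with M1 vesicles and the adhesion molecule MCAM rose (0.36 ± 0.048, adjusted p = 1.92e-07). In that comparison, M1 EV against Ctrl, 14.3% of all tested genes were called higher and 13.7% lower.

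Of the 9 members, 7 were tested. In M1 EV against Ctrl, 4 of the 7 rose (IL1B, IRAK2, IL1A and IL1RAP), none fell, and IL1R1, MYD88 and IRAK1 did not pass the test. Over all genes tested, 28.1% were called in this comparison, 14.3% higher and 13.7% lower. The same 4 genes were the ones higher in M1 EV against M0 EV, where 25.3% of genes were called (12.5% higher, 12.8% lower), and against M2 EV, where 24.6% were called (12.6% higher, 12% lower). The comparisons with M1 EV share its 3 libraries and are not independent of each other. Every M1 EV library lay above all 9 other libraries for these 4 genes, a pattern that 12.3% of all tested genes had.

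IL1B, the ligand made as a precursor that a protease must cut, had the largest change. Its level was 4.60, 5.65 and 4.98 CPM in the Ctrl libraries, 4.72, 4.57 and 4.78 in M0 EV, 5.37, 5.14 and 4.26 in M2 EV, and 41.82, 46.70 and 39.81 in M1 EV. The M1 EV libraries stood far from the other 9, which overlapped each other. The group means were 5.07 ± 0.53 CPM in Ctrl and 42.78 ± 3.54 CPM in M1 EV (SD, n = 3), an 8.45-fold rise (log2 fold change 3.08 ± 0.094, SE, adjusted p = 4.95e-26 by edgeR). It ranked 9 of 13116 genes by p-value in that comparison. Against M0 EV the rise was 9.11-fold (3.19 ± 0.093, adjusted p = 1.57e-26), and against M2 EV it was 8.74-fold (3.13 ± 0.089, adjusted p = 5.22e-27).

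IL1A, the ligand whose precursor is already active, was the less abundant of this pair. Its libraries held 2.20, 3.29 and 2.13 CPM in Ctrl, 2.61, 2.58 and 3.10 in M0 EV, 2.93, 2.50 and 2.74 in M2 EV, and 7.23, 6.93 and 7.65 in M1 EV. Again only the M1 EV libraries stood apart among the 12. The mean went from 2.54 ± 0.65 CPM in Ctrl to 7.27 ± 0.36 CPM in M1 EV (SD, n = 3), a 2.88-fold rise (log2 fold change 1.52 ± 0.161, SE, adjusted p = 9.02e-10 by edgeR). These levels rest on 21.5 to 32.5 counts per library in Ctrl and 70.5 to 78.5 in M1 EV, and the Ctrl spread (coefficient of variation 25.6%) was near the 19.7% that counting alone gives at that depth. The rises against M0 EV (2.62-fold, adjusted p = 3.13e-09) and M2 EV (2.68-fold, adjusted p = 1.02e-09) were of similar size.

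**Figure D1:**
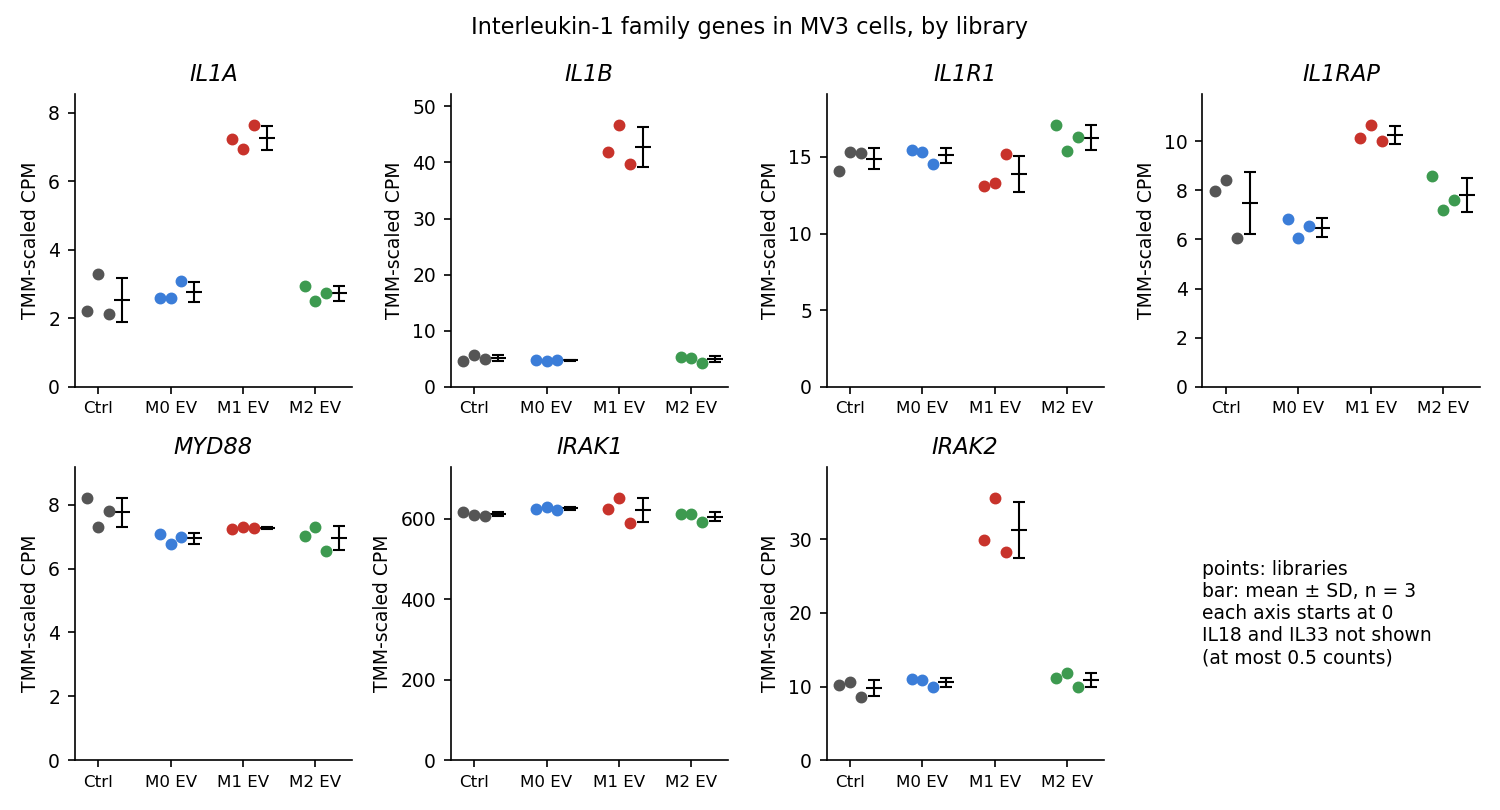
TMM-scaled CPM of the 7 tested genes in each library, with points for libraries and black bars for the mean ± SD of 3 libraries, on linear axes that start at 0. The M1 EV libraries lie apart for IL1B (39.81 to 46.70 CPM), IL1A (6.93 to 7.65) and IRAK2 (28.24 to 35.57), lie above the others for IL1RAP (10.00 to 10.67), and overlap the others for IL1R1, MYD88 and IRAK1.

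IL18 and IL33, an alarm cytokine stored in nuclei, were not detectable at this depth. IL18 had a value of 0.5 in M2 EV replicate 2 and 0 in the other 11 libraries, and IL33 had 0.5 in M1 EV replicate 3 and 0 elsewhere. A count of 0 over the 3 libraries of a group allows up to 3 counts, which is 0.0971 CPM in Ctrl, 0.0889 in M0 EV, 0.0967 in M1 EV and 0.0796 in M2 EV (counting error only). Their own receptor chains were near 0 too: IL18R1 had 4 counts over all 12 libraries, IL18RAP had 0 and the IL-33-binding chain IL1RL1 had 5.5.

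In GRCh38, IL1A (chromosome 2, 112773925 to 112784493) and IL1B (chromosome 2, 112829751 to 112836779) lie 45.3 kb apart. They belong to a cluster of 9 ligand and antagonist genes that spans 360.1 kb. The other 7 genes of the cluster were near or at 0: the receptor antagonist IL1RN had 30 counts over all libraries, IL37 had 21.5, IL36G had 17.5, and IL36A, IL36B, IL36RN and IL1F10 had none. IL1R1 (chromosome 2, 102070390 to 102179874) lies in a second cluster, of 6 receptor genes over 460.6 kb, in which the decoy receptor IL1R2 had 14 counts, IL1RL1 5.5, IL18R1 4, and IL1RL2 and IL18RAP none. Within both clusters the detected genes were therefore IL1A, IL1B and IL1R1, with traces of the others. The remaining members are spread over 4 chromosomes: IL1RAP (190514085 to 190659750), IRAK2 (10164919 to 10243745) and MYD88 (38138661 to 38143022) on chromosome 3, IRAK1 (154010507 to 154019902) on chromosome X, IL18 (112143260 to 112164094) on chromosome 11 and IL33 (6215149 to 6257983) on chromosome 9.

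The promoters of the 4 genes that rose are shown to let their starts be compared, from 250 bases before to 50 bases after the annotated start (RefSeq, GRCh38.p14). IL1A is at chr2:112784444-112784743 on the minus strand, IL1B at chr2:112836730-112837029 on the minus strand, IRAK2 at chr3:10164669-10164968 on the plus strand and IL1RAP at chr3:190513835-190514134 on the plus strand. For IL1A, which has 2 listed starts, the upstream one is shown. Capitals mark matches to TGANTCA, a core recognised by AP-1 factors.
IL1A: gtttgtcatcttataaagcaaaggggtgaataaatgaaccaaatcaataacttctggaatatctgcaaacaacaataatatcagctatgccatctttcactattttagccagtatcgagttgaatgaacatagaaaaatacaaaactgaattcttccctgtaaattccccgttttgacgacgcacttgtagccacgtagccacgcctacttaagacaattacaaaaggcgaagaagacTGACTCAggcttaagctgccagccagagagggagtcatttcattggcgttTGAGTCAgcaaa
IL1B: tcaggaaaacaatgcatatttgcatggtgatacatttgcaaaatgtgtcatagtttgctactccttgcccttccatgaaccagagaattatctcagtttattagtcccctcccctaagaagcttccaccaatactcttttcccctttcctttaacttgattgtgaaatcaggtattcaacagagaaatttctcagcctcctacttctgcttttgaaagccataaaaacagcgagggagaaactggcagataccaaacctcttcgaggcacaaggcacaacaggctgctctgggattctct
IRAK2: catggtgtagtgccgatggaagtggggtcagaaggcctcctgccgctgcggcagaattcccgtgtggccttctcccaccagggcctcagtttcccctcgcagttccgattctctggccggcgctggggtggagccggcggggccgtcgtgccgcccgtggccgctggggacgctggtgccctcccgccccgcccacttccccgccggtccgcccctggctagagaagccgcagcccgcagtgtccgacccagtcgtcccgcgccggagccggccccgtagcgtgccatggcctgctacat
IL1RAP: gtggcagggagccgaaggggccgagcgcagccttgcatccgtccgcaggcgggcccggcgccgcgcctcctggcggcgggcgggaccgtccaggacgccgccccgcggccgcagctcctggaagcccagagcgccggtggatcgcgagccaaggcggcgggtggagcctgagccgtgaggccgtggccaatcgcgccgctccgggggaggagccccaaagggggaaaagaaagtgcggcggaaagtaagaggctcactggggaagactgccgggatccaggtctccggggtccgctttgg

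The motif search covered both strands and also 2 kappa-B-like patterns, GGGA and TTCC with any 2 bases between them, and GGG and TTTCC with any 2 bases between them, which can overlap each other. IL1A held 2 matches of TGANTCA, at bases -12 to -6 and 38 to 44 counted from the upstream start as 0. From its other listed start the same 2 sites lie at -105 to -99 and -55 to -49. IRAK1, whose level did not pass the test, held 1 match, at -1 to 5. No member promoter held either kappa-B-like pattern, which says only that these letters are not in these windows. Of 35116 promoters of the same length, 7.71% held TGANTCA, 1.61% held the first kappa-B-like pattern and 1.91% the second. RefSeq promoters were matched for 8 of the 9 members.

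IL1R1, the chain that binds IL-1, did not pass the test in any comparison. Its libraries held 14.09, 15.31 and 15.28 CPM in Ctrl, 15.47, 15.30 and 14.53 in M0 EV, 13.11, 13.32 and 15.20 in M1 EV, and 17.09, 15.41 and 16.30 in M2 EV. The M1 EV libraries overlapped Ctrl and M0 EV but lay below every M2 EV library. In M1 EV against Ctrl the log2 fold change was -0.10 (95% interval -0.30 to 0.09, adjusted p = 0.467 by edgeR), whose upper bound lies below the lower bound of IL1RAP, 0.23. Against M2 EV it was -0.22 ± 0.086 (SE, adjusted p = 0.057), a value that passed with limma-voom (adjusted p = 0.0499), with all transcripts of the gene summed (0.0143), and without M1 EV replicate 3 (0.0295) or M2 EV replicate 2 (0.0495).

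IL1RAP, the accessory chain without which IL1R1 does not signal, rose. Its levels were 7.996, 8.43 and 6.04 CPM in Ctrl, 6.84, 6.06 and 6.56 in M0 EV, 8.59, 7.22 and 7.62 in M2 EV, and 10.12, 10.67 and 10.00 in M1 EV. Ctrl replicate 3 was the lowest of all 12 libraries, while the M1 EV libraries were the highest 3. The mean went from 7.49 ± 1.27 CPM in Ctrl to 10.26 ± 0.36 CPM in M1 EV (SD, n = 3), a 1.38-fold rise (log2 fold change 0.47 ± 0.118, SE, adjusted p = 0.00219 by edgeR). Without Ctrl replicate 3 the log2 fold change was 0.32 and the call was lost (adjusted p = 0.0702). Against M0 EV the rise was 1.58-fold (0.66 ± 0.119, adjusted p = 4.58e-05). Against M2 EV it was 1.33-fold (0.41 ± 0.111, adjusted p = 0.00525), and that call was lost with DESeq2 (adjusted p = 0.0603).

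IL1RAP is known to be made both as a membrane chain and as a shorter secreted form, and 11 of its transcripts were in the table. Each transcript of the table was therefore also fitted as its own row, where 27.8% of 43481 tested transcripts were called in M1 EV against Ctrl. The long form NM_002182 stood at 0.47 ± 0.117 on the log2 scale (SE, edgeR adjusted p = 0.0018) and the secreted form NM_134470 one of 0.41 ± 0.152 (adjusted p = 0.0388). All 11 had positive values, from 0.34 to 0.50, and 10 were called, NM_001364880 being the exception (adjusted p = 0.136). The count of NM_134470 relative to NM_002182 was 0.618 ± 0.059 in Ctrl and 0.595 ± 0.018 in M1 EV (SD, n = 3; exact permutation test, 2-sided, p = 0.6). Transcripts of a gene share exons and appear to share counts, so these values are not independent of each other. None of the 10 IL1R1 transcripts was called, with log2 fold changes of -0.25 to -0.09 and adjusted p from 0.429 to 0.537. RefSeq places an antisense RNA, IL1R1-AS1, across the end of IL1R1, and no source used here says whether reads were assigned by strand.

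**Figure D2:**
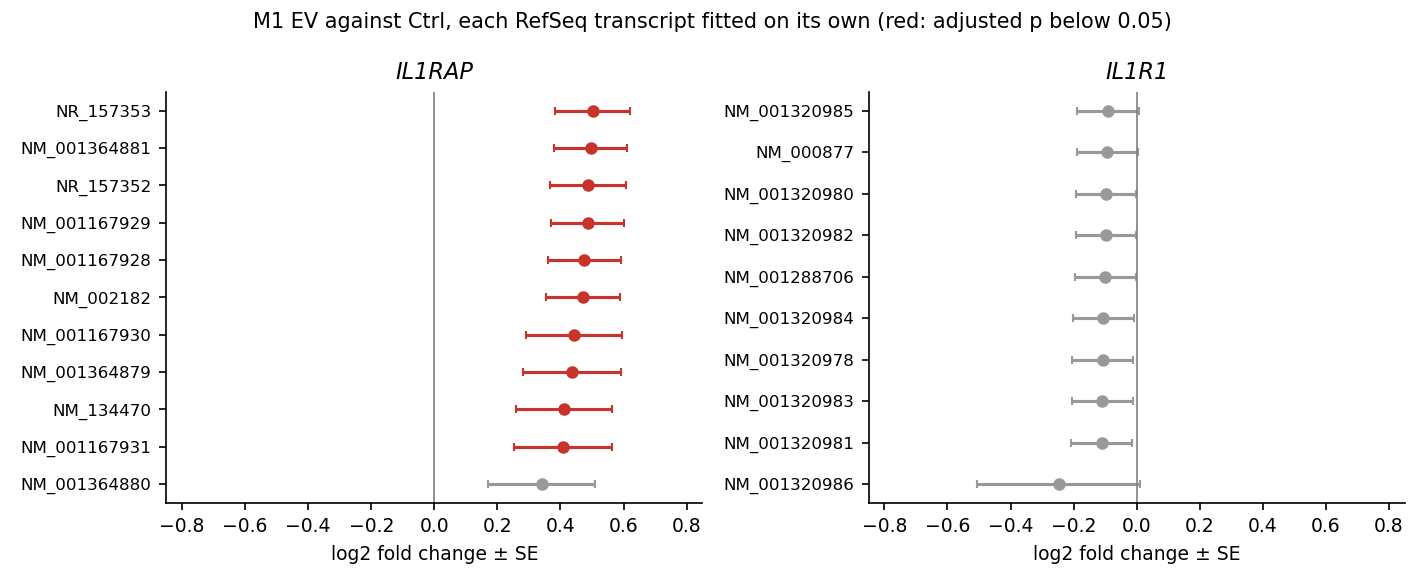
Log2 fold change ± SE in M1 EV against Ctrl for each RefSeq transcript of IL1RAP (left) and IL1R1 (right), fitted one by one, with red points for an adjusted p below 0.05. The 11 IL1RAP transcripts lie between 0.34 and 0.50 and the 10 IL1R1 transcripts between -0.25 and -0.09.

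Among the signalling genes, IRAK2 rose while MYD88 and IRAK1 did not pass the test. IRAK2, a kinase relative that sustains IL-1 and Toll-like receptor signals, held 10.20, 10.69 and 8.53 CPM in Ctrl, 10.99, 10.93 and 9.92 in M0 EV, 11.13, 11.80 and 9.90 in M2 EV, and 29.94, 35.57 and 28.24 in M1 EV. Only M1 EV stood apart, and the other groups overlapped. The mean went from 9.80 ± 1.13 CPM in Ctrl to 31.25 ± 3.84 CPM in M1 EV (SD, n = 3), a 3.22-fold rise (log2 fold change 1.69 ± 0.095, SE, adjusted p = 2.37e-17 by edgeR). The rises against M0 EV (2.95-fold, adjusted p = 7.45e-17) and M2 EV (2.86-fold, adjusted p = 5.75e-17) were close to it.

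MYD88, the adaptor that links the receptor tails to the IRAK kinases, held 8.20, 7.30 and 7.82 CPM in Ctrl, 7.08, 6.76 and 6.998 in M0 EV, 7.23, 7.30 and 7.26 in M1 EV, and 7.03, 7.29 and 6.55 in M2 EV. The libraries of all 4 groups lay between 6.55 and 8.20 CPM. M1 EV reached Ctrl only narrowly, with its highest library at 7.297 CPM and the lowest Ctrl library at 7.295. Every M0 EV and M2 EV library lay below all Ctrl libraries, a pattern whose share over all genes was not counted. With M0 vesicles the log2 fold change from Ctrl was -0.16 (95% interval -0.42 to 0.10 by edgeR). With M2 vesicles it was -0.16 (-0.42 to 0.10), and neither passed the test. The log2 fold change of M1 EV against Ctrl was -0.10 (95% interval -0.37 to 0.17, adjusted p = 0.635 by edgeR). IRAK1, another of the IRAK kinases, was the most abundant member. It stood at 611.7 ± 5.3 CPM in Ctrl, 626.3 ± 3.9 in M0 EV, 622.1 ± 30.7 in M1 EV and 606.1 ± 11.7 in M2 EV (SD, n = 3). Its M1 EV libraries, at 624.9, 651.2 and 590.1 CPM, lay on both sides of Ctrl, at 617.2, 611.0 and 606.7 CPM. With this depth the 95% interval of the log2 fold change was narrow, -0.04 to 0.09 around 0.02 (adjusted p = 0.621).

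**Figure D3:**
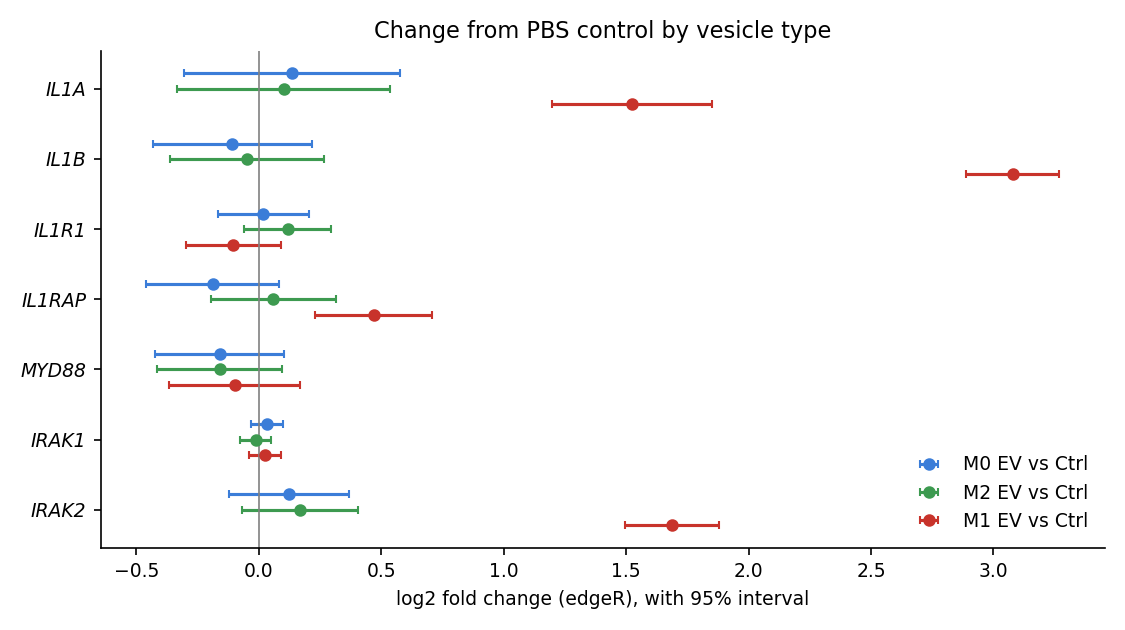
Log2 fold change from Ctrl for the 7 tested genes with M0, M2 and M1 vesicles, with 95% intervals. The M1 EV intervals of IL1B (2.89 to 3.27), IRAK2 (1.49 to 1.88), IL1A (1.20 to 1.85) and IL1RAP (0.23 to 0.71) lie above 0, and every M0 EV and M2 EV interval includes 0.

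M0 and M2 vesicles gave no call among the members. Neither edgeR, DESeq2 nor limma-voom called any of the 7 genes in M0 EV against Ctrl, M2 EV against Ctrl or M2 EV against M0 EV, and 0 had an unadjusted p below 0.05. Few genes were called at all in these comparisons, 0.0152% of those tested with M0 vesicles (0.00762% higher and 0.00762% lower), 0.0457% with M2 vesicles (0.0152% higher and 0.0305% lower) and 0% between these vesicles. The intervals bound what could have been missed: for IL1B the log2 fold change was -0.11 (95% interval -0.43 to 0.22) with M0 vesicles and -0.05 (-0.36 to 0.27) with M2 vesicles. For IL1A the values were 0.14 (-0.31 to 0.58) and 0.10 (-0.33 to 0.53), for IRAK2 0.12 (-0.12 to 0.37) and 0.17 (-0.07 to 0.41), and for IL1RAP -0.19 (-0.46 to 0.08) and 0.06 (-0.20 to 0.31). In each case the upper bound lay below the lower bound of the M1 EV rise over Ctrl, except for IL1RAP with M2 vesicles. The smallest unadjusted p among the members was that of IL1RAP in M2 EV against M0 EV (0.0542, log2 fold change 0.25 ± 0.124, SE, edgeR adjusted p = 1).

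Levels of different genes were compared per kilobase of transcript. In Ctrl the order was IRAK1 (166.8 ± 1.4 CPM per kb), IL1B (3.11 ± 0.33), IL1R1 (2.90 ± 0.13), MYD88 (2.89 ± 0.17), IRAK2 (2.81 ± 0.32), IL1RAP (1.57 ± 0.27) and IL1A (1.20 ± 0.31; SD, n = 3). IL1B, IL1R1, MYD88 and IRAK2 did not differ beyond their spread there, nor did IL1RAP and IL1A. In M1 EV, IL1B (26.23 ± 2.17 CPM per kb) and IRAK2 (8.97 ± 1.10) stood clear of IL1A (3.42 ± 0.17), which in turn lay above IL1R1 (2.70 ± 0.22) and MYD88 (2.70 ± 0.013), with IL1RAP last (2.15 ± 0.08). The places of MYD88 and IL1RAP in both groups depend on the length taken. The lengths used were 2.691 and 4.769 kb, and those matched to the chosen transcripts, 0.93 and 2.24 kb, would raise both values.

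In these libraries the ratios of related members were higher in M1 EV than in the other groups. IL1B per IL1A, both in CPM per kb, was 2.72, 2.24 and 3.04 in the Ctrl libraries and 7.54, 8.77 and 6.78 in M1 EV, while M0 EV (2.01 to 2.36) and M2 EV (2.03 to 2.68) stayed near Ctrl. IL1RAP per IL1R1 was 0.612, 0.594 and 0.426 in Ctrl and 0.832, 0.864 and 0.710 in M1 EV. IRAK2 per IRAK1 was 0.0174, 0.0184 and 0.0148 in Ctrl and 0.0504, 0.0575 and 0.0504 in M1 EV, so IRAK1 remained by far the more abundant kinase. In each of these ratios the M1 EV libraries did not overlap any other group. The exact permutation test (2-sided) gave p = 0.1 for each in M1 EV against Ctrl, the smallest value that 3 against 3 libraries allow, and 0.3 after adjustment over the 12 ratio tests made.

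**Figure D4:**
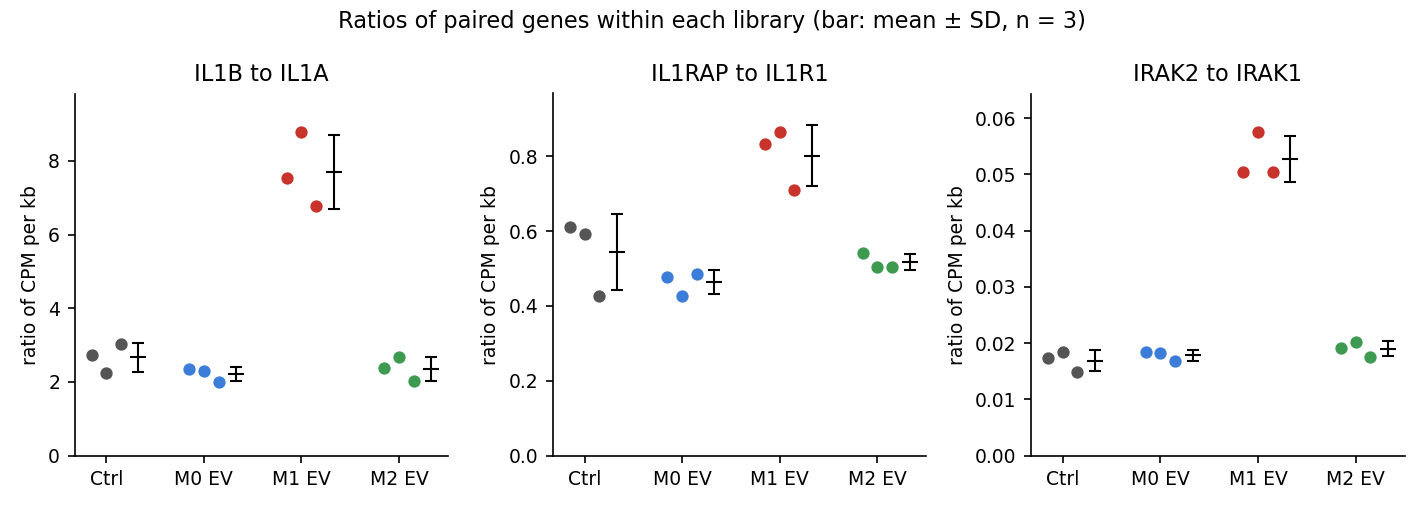
Ratio of 2 genes in CPM per kb within each library, for IL1B to IL1A, IL1RAP to IL1R1 and IRAK2 to IRAK1, with points for libraries and bars for the mean ± SD of 3. The M1 EV points (6.78 to 8.77, 0.710 to 0.864 and 0.0504 to 0.0575) lie above those of the other 3 groups in each panel.

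The other genes of the pathway were read from lists of ligands and antagonists, receptors, signalling genes and processing genes. Of the 12 genes in the ligand and antagonist list, 3 were tested in M1 EV against Ctrl, and the only one that is not a member, the IL-18 inhibitor IL18BP, stood at -0.09 ± 0.142 on the log2 scale (SE, edgeR adjusted p = 0.708). IL1RN, the natural antagonist of IL1R1, was below the test's count filter, at 0.202 ± 0.200 CPM in Ctrl and 0.364 ± 0.169 in M1 EV (SD, n = 3), and the edgeR fit without that filter put the change at 0.84 ± 0.791 on the log2 scale (SE, adjusted p = 0.567). Of the 10 receptor genes 3 were tested, and SIGIRR, a receptor relative that dampens IL-1 and Toll-like receptor signals, fell from 48.04 ± 2.02 CPM in Ctrl to 39.29 ± 2.10 CPM in M1 EV (SD, n = 3), or -0.29 ± 0.063 on the log2 scale (SE, edgeR adjusted p = 0.000391).

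In the MyD88 and IRAK signalling list a few genes were called. Of its 23 genes 21 were tested, and 3 rose and 1 fell in M1 EV against Ctrl, where 14.3% of all tested genes were called higher and 13.7% lower, with a median log2 fold change of -0.015 beside 0.0008 over all genes tested. Besides IRAK2, the scaffold SQSTM1, which binds TRAF6, rose from 387.2 ± 10.1 CPM in Ctrl to 511.1 ± 7.2 CPM in M1 EV (SD, n = 3), or by 0.40 ± 0.032 on the log2 scale (SE, edgeR adjusted p = 4.07e-13). ECSIT rose by 0.20 on the log2 scale (adjusted p = 0.00505), a call lost without M1 EV replicate 1 (0.104), where 2 genes of the list were called, both higher. The kinase MAP3K3 had a log2 fold change of -0.15 (adjusted p = 0.026), lost with DESeq2 (0.111) and on leaving out Ctrl replicate 1 (0.206) or, in M1 EV, replicate 1 (0.0875) or 3 (0.0545). IRAK4, which phosphorylates IRAK1, stood at -0.08 ± 0.092 and the ubiquitin ligase TRAF6 at -0.11 ± 0.077 (adjusted p = 0.561 and 0.324), and IRAK3, an inhibitory relative, had 4 counts over all libraries. These last 3 were chosen after their values were seen.

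Genes for the cutting and release of IL-1 and IL-18 changed in both directions. Of 25 genes 18 were tested, and 5 rose and 6 fell in M1 EV against Ctrl (median log2 fold change -0.034), where 28.1% of all tested genes were called. DESeq2 called 6 of them, 2 higher and 4 lower, and without M1 EV replicate 1 edgeR called 7, 3 higher and 4 lower. The inflammasome DNA sensor AIM2 rose from 0.327 ± 0.165 CPM in Ctrl to 1.60 ± 0.41 CPM in M1 EV (SD, n = 3), or by 2.26 ± 0.40 on the log2 scale (SE, edgeR adjusted p = 2.63e-05). It passed the count filter only through M1 EV. CASP4, an inflammatory caspase, rose from 25.38 ± 1.00 to 41.06 ± 1.24 CPM (0.70 ± 0.064, adjusted p = 3.16e-11). The calpain genes fell: CAPN2 went from 599.5 ± 12.7 CPM in Ctrl to 464.1 ± 7.3 CPM in M1 EV (-0.37 ± 0.031, adjusted p = 1.62e-12), the shared small subunit CAPNS1 changed by -0.21 ± 0.033 (adjusted p = 3.8e-06) and CAPN1 by -0.19 ± 0.037 (adjusted p = 0.000154). Calpains are known to cut the IL-1 alpha precursor.

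The other 6 called genes of the processing list were chosen after their values were seen. CASP1, the caspase that cuts the IL-1 beta precursor, went from 11.43 ± 0.26 CPM in Ctrl to 14.27 ± 1.23 CPM in M1 EV (SD, n = 3), or by 0.32 ± 0.098 on the log2 scale (SE, edgeR adjusted p = 0.0123). DESeq2 did not call it (adjusted p = 0.0831), nor did edgeR on leaving out replicate 3 of M1 EV (0.086), and the near-identical CARD16 may share its reads. NLRP3, the sensor of the best known inflammasome, stood at 0.49 ± 0.159 (adjusted p = 0.0168), a call lost with DESeq2 (0.104) and without M1 EV replicate 1 (0.0571) or 2 (0.0936). S100A13, which takes part in IL-1 alpha export, stood at -0.17 ± 0.048 (adjusted p = 0.0055), lost without M1 EV replicate 3 (0.0735). CASP8 (0.17 ± 0.055, adjusted p = 0.018), the NLRP3 partner NEK7 (-0.14 ± 0.049, adjusted p = 0.0357) and CARD8 (-0.11 ± 0.041, adjusted p = 0.0457) lost their calls under 4, 6 and 10 of the 21 alternative settings, DESeq2 among them (0.0837, 0.105 and 0.119).

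**Figure D5:**
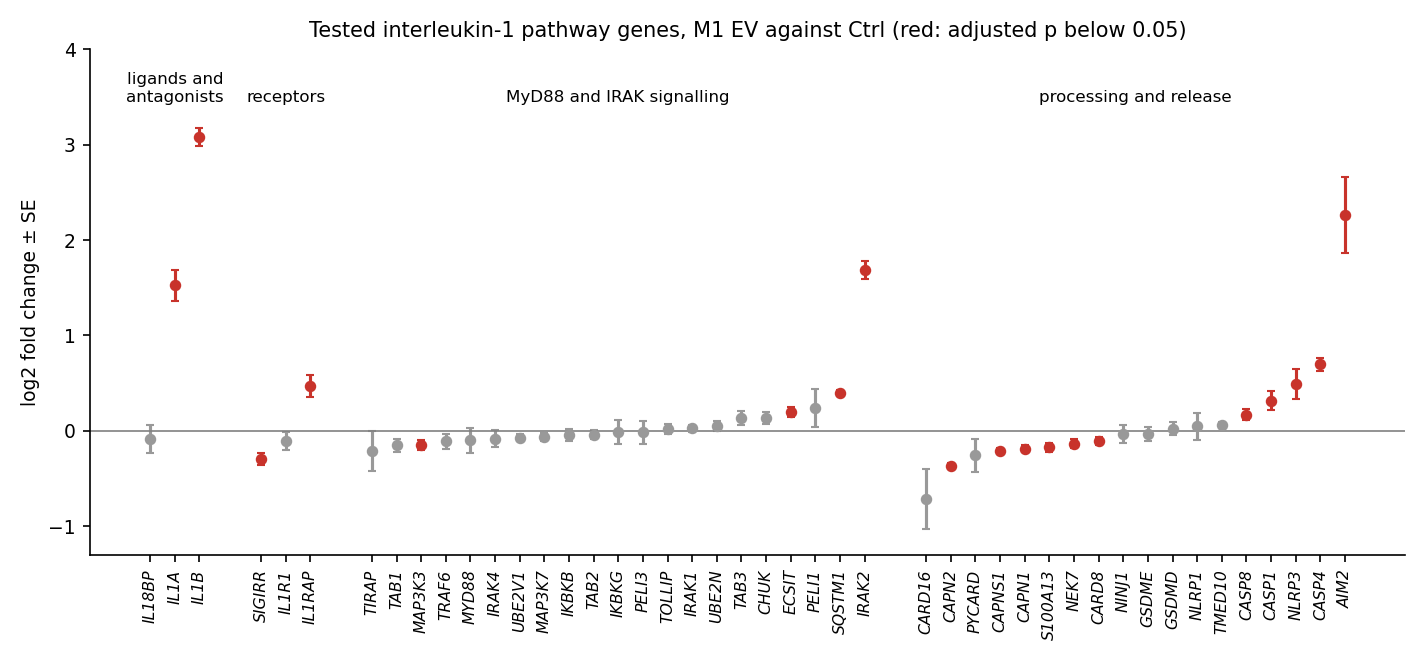
Log2 fold change ± SE in M1 EV against Ctrl for each tested gene of the ligand, receptor, signalling and processing lists, ordered by size within a list, with red points for an adjusted p below 0.05. IL1B (3.08), AIM2 (2.26), IRAK2 (1.69) and IL1A (1.52) lie above the rest, and most signalling genes lie close to 0.

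Of 10 genes in the list of Toll-like receptors that also use MYD88, co-receptors included, 2 were tested and neither was called in any comparison. TLR6, a receptor for bacterial lipopeptides, stood at 7.67 ± 0.58 CPM in Ctrl and 8.58 ± 0.31 in M1 EV (SD, n = 3), and the TLR4 co-receptor LY96 at 3.39 ± 0.30 and 3.62 ± 0.71 CPM. TLR2, TLR7 and TLR8 had no count in any library and TLR4 had 11 in all.

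Textbook response genes of IL-1 moved with the members. Of 20 such genes 18 were tested and all 18 rose in M1 EV against Ctrl, where 14.3% of all tested genes were called higher. Their median log2 fold change was 2.15 beside 0.0008 over all genes tested. They included the neutrophil chemokine CXCL8 (5.76 ± 0.089, SE, edgeR adjusted p = 2.04e-36), CXCL1 (4.02 ± 0.061, adjusted p = 2.04e-36), ICAM1 (2.85 ± 0.066, adjusted p = 6.34e-30), the mitochondrial dismutase SOD2 (1.77 ± 0.046, adjusted p = 2.2e-28) and the apoptosis inhibitor BIRC3 (2.28 ± 0.081, adjusted p = 9.13e-24). With M0 and M2 vesicles none of the 18 was called, where only 0.0152% and 0.0457% of all tested genes were. The medians there were 0.098 and 0.197 beside 0.0032 and 0.0014 over all genes tested. These genes also respond to TNF and other NF-kB activators, and the list was written with earlier results of these data known, so its direction is not independent evidence. DESeq2 called 17 of them, as did edgeR without M1 EV replicate 1. CXCL2 (0.544 CPM in Ctrl, 6.03 in M1 EV), CXCL3 (0.448 and 5.12) and MMP3 (0.586 and 1.47), named after their values were seen, passed the count filter only through M1 EV. Their entry into the test therefore depended on the group in which they were high. CXCL1 shares near-identical sequence with CXCL2 and CXCL3, so reads may have been split between them.

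The genes whose pattern over the 12 libraries was most like that of each risen member were found by Pearson's r of log2 CPM among 12159 genes. For IL1B they were the integrin chain ITGA5 (r = 0.993), BCL3 (0.993), PLAU (0.991), TNIP1 (0.991) and CXCL1 (0.991). IL1A was closest to NFE2L3 (0.98), SLC6A15 (0.978), ITGAV (0.978), NFKBIZ (0.976) and SGK1 (0.976), and IRAK2 to SLC6A15 (0.99), JUNB (0.99), CEBPD (0.988), MRTO4 (0.988) and STC1 (0.988). IL1RAP had lower values, with SLC25A37 (0.947), MCM10 (0.934), SFSWAP (0.933), NFKBID (0.918) and NOL8 (0.917). Between members r was 0.985 for IL1B and IRAK2, 0.968 for IL1B and IL1A, and 0.831 for IL1B and IL1RAP. The libraries form 2 clusters, M1 EV and the rest, so these values mostly record how evenly a gene separates them and are a description without a test.

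Macrophages make IL1B, and the vesicles came from macrophage-like cells, so the levels of macrophage markers are given beside the rise. Of 30 markers 10 had no count in any library, among them CD163, TYROBP, HLA-DRA and C1QA, and PTPRC, the leukocyte antigen CD45, had 2.5 counts over all 12. With 4 tested, CTSS (1.98 ± 0.284, SE, edgeR adjusted p = 7.24e-07) and CD68 (0.24 ± 0.050, adjusted p = 0.000244) rose in M1 EV against Ctrl, where 28.1% of all tested genes were called. CTSS was low, at 0.805 CPM in Ctrl and 3.25 in M1 EV. CD74 (0.27 ± 0.106, adjusted p = 0.0553) and CORO1A (-0.14 ± 0.267, adjusted p = 0.741), named after their values were seen, were not called there. Against M0 EV and against M2 EV, 3 of the 4 were called higher, where 12.5% and 12.6% of all tested genes were. The summed level of the list was 69.77 to 75.62 CPM in Ctrl, 71.67 to 74.34 in M0 EV, 74.14 to 77.14 in M2 EV and 86.65 to 87.66 in M1 EV. Most of it was CD68, which stood at 56.72 CPM in Ctrl and 66.85 in M1 EV. Without CD68 and CTSS the sum was 13.66 to 15.19 CPM in Ctrl, 13.82 to 14.71 in M0 EV, 13.54 to 15.14 in M2 EV and 16.21 to 17.85 in M1 EV. The part of these markers' source, macrophage or vesicle RNA, in the level of IL1B was not tested.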

How the data were processed

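RNA of MV3 cells was sequenced from 12 libraries in 4 groups of 3. Per the labels' protocols, total RNA was made into directional poly(A) libraries. The submitters' processing notes name STAR 2.6.1b, HOMER 4.10 and hg38 without their roles. The deposited values are expected counts for 70507 RefSeq transcripts, not normalized by the authors, and are multiples of 0.5. In one column header the 3 of MV3 is missing; it was assigned to replicate 1 of M0 EV, whose column was otherwise absent.

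Transcripts were named with RefSeq GRCh38.p14 (69830) or GENCODE 29 (343), and 334 unnamed ones, 0.058% to 0.062% of counts, were left out. Each gene was its transcript with the most counts, ties going to the lower accession number, rounded to whole counts. Transcript lengths are the longest GENCODE match among transcripts with at least 99% of the top one's counts.

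In R 4.3.3, edgeR 4.0.16 kept 13116 genes by its default filter, scaled them by TMM (factors 0.993 to 1.007) and fitted a quasi-likelihood model with 1 term per group over 12 libraries (8 residual degrees of freedom), with 6 comparisons tested 2-sided. Benjamini-Hochberg adjustment of the p-values ran over all tested genes within a comparison, and a call is an adjusted p below 0.05. SE and 95% intervals were read back from each test's p. log2 CPM for the likeness of patterns used a prior count of 2. The test was checked on simulated data. The replicate number was not a block. Between libraries of a group, the chi-square of counts per degree of freedom was 1.03 to 2.32, where 1 is counting noise alone; M0 EV replicates 2 and 3 gave the smallest value (p = 0.00263) and were kept as separate samples.

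The members and lists were chosen with earlier results of these data known. All members are named. Of each list, genes that are not members were named where called in M1 EV against Ctrl if 6 or fewer were, otherwise the 5 with the smallest adjusted p. For each risen member the 5 most alike genes of at least 1 CPM were named. Alternatives were DESeq2 1.42.0, limma-voom (limma 3.58.1), scaling by RLE or the upper quartile, summed transcripts, a floor of 10 mean counts, dropping the filter, only the compared groups, a replicate block, each library left out, and, chosen after seeing the data, a fit of every transcript and the list counts under each setting. No protein sequence was used here.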

Additional observations from a re-analysis of the deposited data

How the results depend on the processing

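The count of members called kept within 1.5 times its main value in all 6 comparisons under all 21 alternatives. Of 882 log2 fold changes of single members recomputed, 859 kept their direction and their side of the threshold. IL1B, IL1A and IRAK2 kept their calls in M1 EV against Ctrl under all 21, with log2 fold changes of 3.01 to 3.15, 1.41 to 1.74 and 1.58 to 1.76. IL1RAP lost its call there without Ctrl replicate 3 (leaving out 1 library gave 0.32 to 0.56) and in M1 EV against M2 EV with DESeq2, and IL1R1 gained one in M1 EV against M2 EV under 4 alternatives.

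Values that changed sign had not passed the test. MYD88 in M2 EV against M0 EV was -0.0013 with limma-voom. Leaving out 1 library gave MYD88 -0.041 to 0.048, IRAK2 -0.024 to 0.12 and IL1A -0.078 to 0.058 in that comparison. In M2 EV against Ctrl it gave IL1A -0.021 to 0.31, IL1B -0.11 to 0.047, IL1RAP -0.088 to 0.15 and IRAK1 -0.022 to 0.0023. IRAK1 ranged from -0.0095 to 0.062 in M1 EV against Ctrl and from -0.040 to 0.032 in M1 EV against M0 EV, and IL1R1 from -0.021 to 0.044 in M0 EV against Ctrl. The cause was not tested.

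With the replicate number as a block, M1 EV against Ctrl again had 4 members called, and no member's call changed in any comparison. Deviations from the group mean correlated at -0.048 to 0.089 over 18 pairs of same-numbered libraries and at -0.068 to 0.064 over 36 other pairs. Counting noise enters these deviations, so the values cannot show whether the numbers mark a shared preparation. Of 33 genes of the pathway and response lists that are not members and were called in M1 EV against Ctrl, 9 lost the call under at least 1 alternative and none changed sign. The count of called processing genes went from 11 to 6 with DESeq2. Leaving out 1 library gave 7 to 11 called processing genes, 2 to 5 signalling genes and 1 to 2 receptor genes. These list counts were recomputed by a choice made after seeing the data. Depth limits IL18, IL33, IL1RN and the low receptors, which the count filter left untested.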
